A study of Mus musculus with 16 samples.

Results

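A set of 6 genes was followed through the retina of wild-type mice and of mice lacking Nxnl1, because their level at 50 lux, or the way they changed after bright light, differed between the genotypes. They were Rnase4, Sox30, Antxr2, Zfp469, Dnaaf4 and Arhgap15, that is 6 of 18193 genes with a probe set annotated to 1 symbol. Together they had 9 of the 45037 probe sets, and 7 of these 9 passed the filter on dim values described below. The genes were chosen by their genotype differences and light changes in these same arrays. The differences between genotypes and from 50 lux to bright light are therefore given as descriptions, with no test.

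All mice were of the BALB/c strain, an albino strain, and were either Nxnl1+/+ or Nxnl1-/-, aged 11-16 weeks and of both sexes. They were raised in a cycle of 12 h at 50 lux and 12 h of darkness, dark adapted for 16 h, exposed for 1 h to white fluorescent light of 50, 2500 or 5000 lux, and returned to darkness for 24 h. The neural retina was then taken off the retinal pigment epithelium for RNA, and each of 16 samples was hybridised to 1 Affymetrix expression array. The doses of 50, 2500 and 5000 lux were represented by 2, 3 and 3 wild-type arrays and by 3, 3 and 2 knockout arrays. The knockout lacked Nxnl1 in every cell as far as the labels state, since no promoter or Cre driver is named. Whether an array held 1 animal or a pool is not stated, so the errors measure the spread between labelled replicates. In whole retina, more cells of a type and more RNA per cell cannot be told apart.

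Nxnl1 is the gene of a trophic factor that rods secrete and that helps cones survive, known as rod-derived cone viability factor; a longer form of its product resembles thioredoxin and takes part in redox defence. Bright light damages photoreceptors of albino mice, which lack the screening pigment of the eye. The 6 genes do not belong to a single pathway. Rnase4 encodes a secreted ribonuclease of the ribonuclease A family and shares its locus with Ang, the gene of angiogenin. Sox30 encodes a transcription factor with an HMG box, best known from male germ cells. Antxr2 encodes capillary morphogenesis protein, a cell surface receptor for collagen and laminin that anthrax toxin uses to enter cells. Arhgap15 encodes a GTPase-activating protein that switches off RAC, best known from white blood cells. Dnaaf4 encodes a cytoplasmic factor that helps assemble the dynein arms of motile cilia. Zfp469 encodes a zinc finger protein whose human counterpart is altered in brittle cornea syndrome.

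Values are log2 of the deposited intensity, on which 1 unit is a doubling. They are comparable between arrays for 1 probe set and not between genes. A probe set was taken as measured above log2 4, an intensity of 16, and was tested if at least 2 arrays exceeded that level, which 23320 did. The lowest value of the files, log2 2.21, filled 30.9% to 31.5% of each array. Array medians lay between 14.4 and 15.8 in intensity, from 14.4 to 15.1 at 50 lux and from 15.3 in bright light. Nxnl1 itself lay between log2 5.64 and 7.61 on wild-type arrays and between 2.21 and 2.92 on knockout arrays, in the direction the labels give. Rod marker genes, which define retina, summed to intensities between 164000 and 175000 on the arrays at 50 lux and between 110000 and 141000 in bright light.

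The start regions of Rnase4, Antxr2 and Arhgap15 are shown first, because Rnase4 shares a start with another gene and the others have unlike base composition. RefSeq sequence of the build GRCm38.p6 was available for 5 of the 6 genes, with 7 start windows of 250 bases before the start in all. Each sequence runs 5′ to 3′ on the strand of the gene, and capitals mark a match to 1 of 5 motifs searched on both strands. The TATA motif was read as TATAAA and the GC box as GGGCGG. For the E-box the letters were CACGTG. The AP-1 motif was searched as TGANTCA, and for STAT the letters searched were TTCNNNGAA. No match overlapped another. The windows are at chr14:51090827-51091076 on the plus strand for Rnase4, chr5:98031018-98031267 on the minus strand for Antxr2 and chr2:43748574-43748823 on the plus strand for Arhgap15.
Rnase4, first start, identical to that of Ang: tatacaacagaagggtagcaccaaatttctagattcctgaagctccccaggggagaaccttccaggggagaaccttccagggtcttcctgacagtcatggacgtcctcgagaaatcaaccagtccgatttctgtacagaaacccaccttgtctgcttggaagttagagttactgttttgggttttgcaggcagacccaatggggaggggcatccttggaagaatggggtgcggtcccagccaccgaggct
Antxr2: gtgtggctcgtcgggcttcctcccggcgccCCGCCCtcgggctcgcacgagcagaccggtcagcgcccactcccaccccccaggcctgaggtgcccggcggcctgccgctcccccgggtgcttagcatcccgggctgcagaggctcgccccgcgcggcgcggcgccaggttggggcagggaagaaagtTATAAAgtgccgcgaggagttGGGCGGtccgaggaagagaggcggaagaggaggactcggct
Arhgap15, first start: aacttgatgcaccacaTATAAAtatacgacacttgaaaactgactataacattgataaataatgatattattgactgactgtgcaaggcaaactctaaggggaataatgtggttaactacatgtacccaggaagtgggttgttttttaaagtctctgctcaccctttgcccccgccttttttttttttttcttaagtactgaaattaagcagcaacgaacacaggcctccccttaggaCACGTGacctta
The Rnase4 window held none of the 5 motifs, with a GC content of 52.4%, equal to the median of 52.4% over 32851 RefSeq promoters. The Antxr2 window had a GC content of 72.8% and held GC boxes at -220 to -215 and -41 to -36 and a TATA match at -62 to -57, counted back from the start. The Arhgap15 window had a GC content of 38.4%, a TATA match at -234 to -229 and an E-box match at -12 to -7. Among all 32851 promoters, 32.7% held a GC box, 12.4% TATA, 6.02% the E-box, 6.75% AP-1 and 7.02% STAT. Neither the AP-1 nor the STAT letters occurred in any of the 7 windows. Each match is a run of letters and not a shown binding site.

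At 50 lux, every knockout array lay above every wild-type array for all 6 genes. This held for 21.4% of the 23320 probe sets tested, and since the genes were picked on this comparison nothing is read from it. Over all probe sets, 0.206% were called higher in knockout at 50 lux and 0.12% lower, at a Benjamini-Hochberg adjusted p below 0.05 in limma. The median log2 difference of all probe sets was 0.04. The 6 genes then separated by what light did. Rnase4, Sox30, Antxr2 and Arhgap15 were higher in wild type after bright light than at 50 lux, so their knockout level at 50 lux lay on the side of the light-exposed wild type. Dnaaf4 was slightly higher in wild type at 2500 lux, by 0.38, and not at 5000 lux. Zfp469 lay below the measured level on every wild-type array, so its light change there could not be judged. A knockout level at 50 lux shifted in the direction of the wild-type light change at both bright doses describes these 4 genes and not Dnaaf4. The genes were picked on such differences, and both differences use the same 2 wild-type arrays at 50 lux. Nothing is therefore read from how many genes share this direction.

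**Figure D1:**
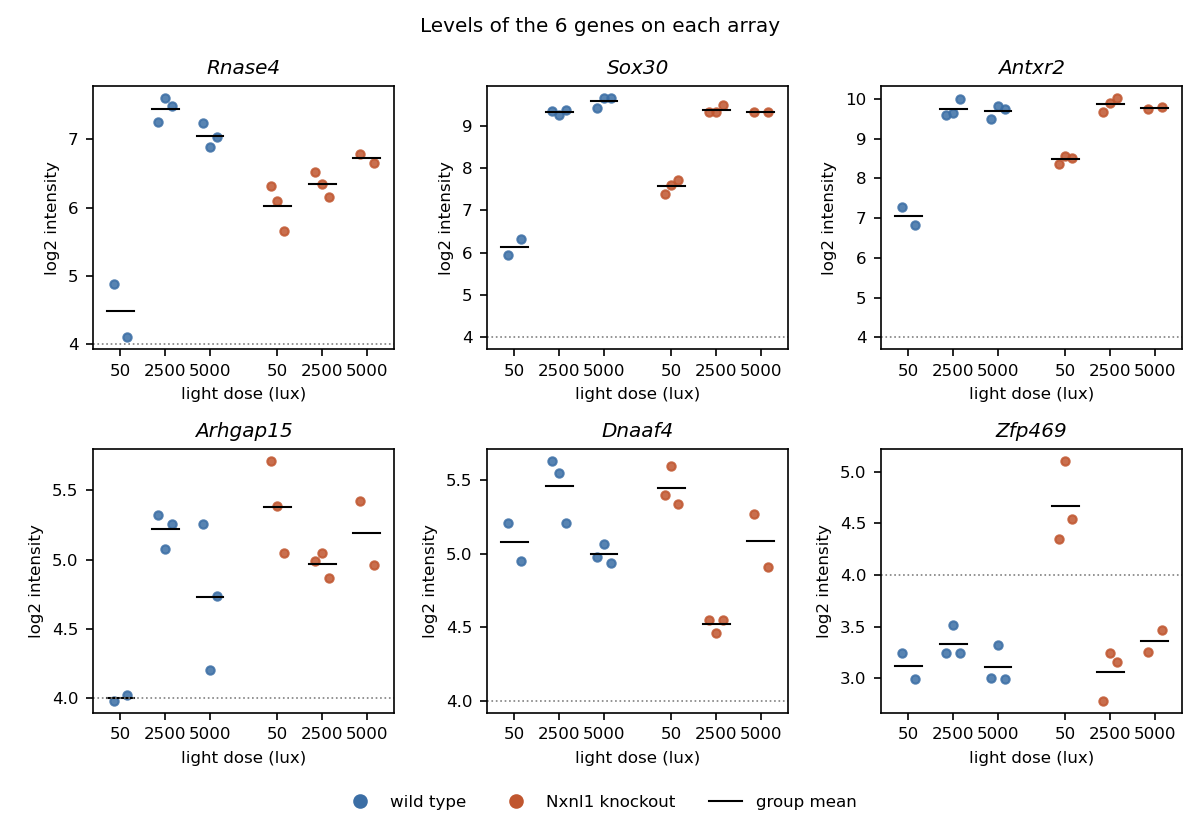
Log2 intensity (vertical axis, a separate range for each gene) of the probe set used for each gene on each of the 16 arrays, by light dose in lux, with wild type in blue and knockout in orange. Lines are group means and the dotted line is log2 4. At 50 lux the knockout points lie above the wild-type points in every panel, and Zfp469 exceeds log2 4 on no array outside knockout at 50 lux.

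Sox30 had the largest light change of the 6 genes in wild type. In wild type it measured log2 5.94 and 6.33 at 50 lux, 9.35, 9.25 and 9.36 at 2500 lux, and 9.42, 9.65 and 9.64 at 5000 lux. In knockout it measured 7.39, 7.60 and 7.72 at 50 lux, 9.31, 9.33 and 9.49 at 2500 lux, and 9.33 and 9.31 at 5000 lux. The genotypes thus stood apart at 50 lux and overlapped at 2500 lux, and at 5000 lux the knockout arrays lay just below the wild-type arrays. The difference of knockout from wild type at 50 lux was 1.44 (SE 0.14), a 2.72-fold higher level. Light changed wild type by 3.19 (SE 0.14) at 2500 lux, 9.12-fold, and by 3.44 at 5000 lux, 10.8-fold. Knockout changed by 1.80 (SE 0.12), 3.49-fold, and by 1.74, 3.35-fold. After bright light the genotypes lay closer together than at 50 lux, as knockout differed from wild type by 0.06 (SE 0.12) at 2500 lux and by -0.25 (SE 0.14) at 5000 lux.

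Antxr2 followed the same order of levels at 50 lux. Its wild-type arrays measured 7.29 and 6.83 at 50 lux, 9.60, 9.65 and 9.99 at 2500 lux, and 9.49, 9.82 and 9.74 at 5000 lux. Its knockout arrays measured 8.37, 8.56 and 8.51 at 50 lux, 9.68, 9.90 and 10.02 at 2500 lux, and 9.74 and 9.79 at 5000 lux. All 11 bright light arrays lay between 9.49 and 10.02 and the groups overlapped there, while the 5 arrays at 50 lux lay below, in 2 separate groups. Knockout exceeded wild type at 50 lux by 1.42 (SE 0.17), 2.67-fold. The light change was 2.68 (SE 0.17) at 2500 lux in wild type, 6.42-fold, against 1.39 (SE 0.15) in knockout, 2.61-fold. At 5000 lux it was 2.62 in wild type, 6.15-fold, against 1.29 in knockout, 2.44-fold.

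Rnase4 differed from Sox30 and Antxr2 in that knockout did not reach the wild-type level at 2500 lux. At 5000 lux the knockout arrays of Sox30 also lay below its wild-type arrays. Wild-type arrays measured 4.87 and 4.09 at 50 lux, 7.26, 7.61 and 7.49 at 2500 lux, and 7.24, 6.89 and 7.03 at 5000 lux. Knockout arrays measured 6.31, 6.10 and 5.66 at 50 lux, 6.52, 6.35 and 6.15 at 2500 lux, and 6.79 and 6.66 at 5000 lux. Knockout was the higher genotype at 50 lux and the lower one at both bright doses, with no overlap at any dose. The difference of knockout from wild type was 1.55 (SE 0.23) at 50 lux, 2.92-fold higher, then -1.11 (SE 0.20) at 2500 lux, 2.16-fold lower. At 5000 lux it was -0.32 (SE 0.23), with the nearest arrays 0.10 apart. Wild type changed with light by 2.97 (SE 0.23), 7.86-fold, at 2500 lux and by 2.57, 5.95-fold, at 5000 lux. Knockout at 2500 lux overlapped knockout at 50 lux, with a change of 0.32 (SE 0.20), and at 5000 lux the change was 0.70 (SE 0.23), 1.63-fold. The group means rose from wild type at 50 lux through knockout at 50, 2500 and 5000 lux to wild type at 5000 and then 2500 lux, and of the neighbours in that order the knockout groups at 50 and 2500 lux were the ones whose arrays overlapped.

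**Figure D2:**
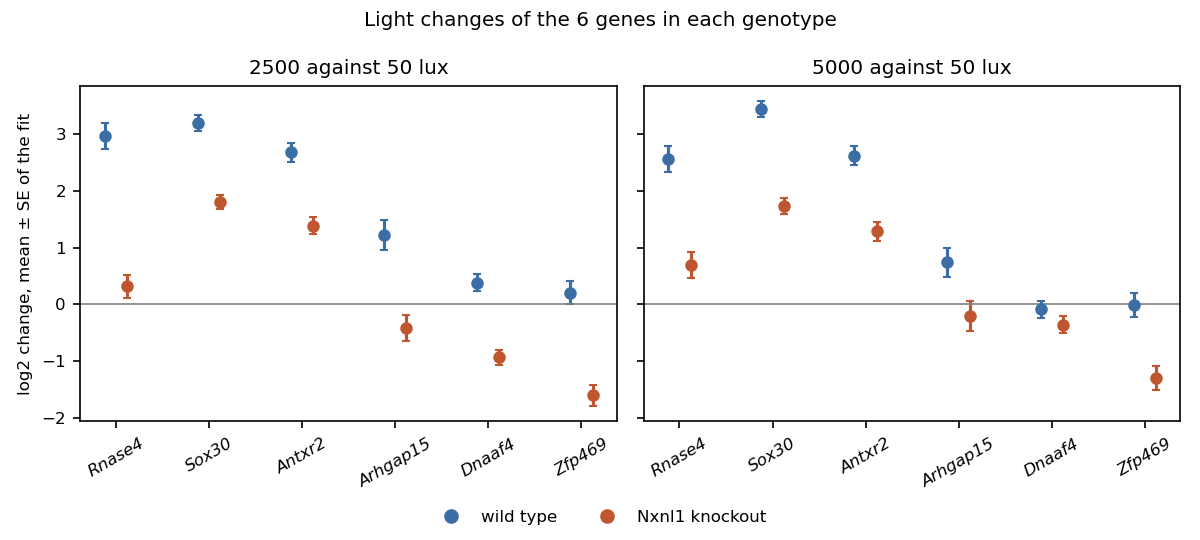
Change in log2 intensity from 50 lux to 2500 lux (left) and to 5000 lux (right) for each gene in wild type (blue) and knockout (orange), with bars of 1 standard error from the fit. For Sox30, Antxr2 and Rnase4 the wild-type change lies between 2.57 and 3.44, and the knockout change between 0.32 and 1.80. Points of Zfp469 use values below the measured level, save those of knockout at 50 lux.

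The share of the wild-type light change already present in knockout at 50 lux describes these profiles on the log2 scale. Set against the change at 2500 lux it was 45.2% for Sox30, 52.1% for Rnase4 and 52.8% for Antxr2. Set against the change at 5000 lux it was 41.9%, 60.2% and 54.1% in the same order. Both quantities in each share use the same 2 wild-type arrays at 50 lux, so a low value on those arrays enlarges both. With Sox30, Antxr2 and Rnase4 alike, the knockout arrays at 50 lux lay between the wild-type arrays at 50 lux and every wild-type array in bright light.

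Arhgap15 was dimmer and its probe sets disagreed. Its brightest probe set measured 3.98 and 4.02 in wild type at 50 lux, 5.32, 5.08 and 5.26 at 2500 lux, and 5.26, 4.20 and 4.74 at 5000 lux. In knockout it measured 5.71, 5.39 and 5.05 at 50 lux, 4.99, 5.05 and 4.87 at 2500 lux, and 5.42 and 4.96 at 5000 lux. The wild-type arrays at 50 lux stood alone at the measured limit and the knockout arrays at 50 lux reached the level of the light-exposed ones. Knockout exceeded wild type at 50 lux by 1.39 (SE 0.26), 2.61-fold. Light changed wild type by 1.22 (SE 0.26), 2.33-fold, at 2500 lux and by 0.74 (SE 0.26), 1.67-fold, at 5000 lux. Knockout changed by -0.41 (SE 0.23) and -0.20 (SE 0.26). The wild-type change at 5000 lux was 0.47 without replicate 1 of that dose and 1.00 without replicate 2, so its size depended on single arrays. The second probe set gave a difference at 50 lux of 0.15 (SE 0.28), with overlapping genotypes, and its group means spanned 0.21 over all 6 groups. The third lay at log2 2.21 on all 16 arrays. The pattern of Arhgap15 therefore rests on 1 of its 3 probe sets.

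Zfp469 was measured in 1 group. Its knockout arrays at 50 lux gave 4.35, 5.10 and 4.54, and the other 13 arrays lay between 2.78 and 3.51, below the level of log2 4. It passed the filter through that group alone. Knockout was at least 1.58-fold higher than wild type at 50 lux and at least 1.58-fold higher than knockout at 2500 and at 5000 lux, with values below log2 4 raised to it. Light-exposed wild type, at 3.24, 3.51 and 3.24 at 2500 lux and at 3.00, 3.32 and 2.99 at 5000 lux, gave no level above the limit, and no fold is given between groups below it. RefSeq places Zfp469 on chromosome 8, as it does Nxnl1, and the other 5 genes on chromosomes 2, 5, 9, 11 and 14.

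Dnaaf4 had the smallest difference at 50 lux and a light change of opposite sign in the genotypes at 2500 lux. Its brighter probe set measured 5.21 and 4.95 in wild type at 50 lux, 5.63, 5.55 and 5.21 at 2500 lux, and 4.98, 5.07 and 4.94 at 5000 lux. In knockout it measured 5.40, 5.60 and 5.34 at 50 lux, 4.55, 4.46 and 4.55 at 2500 lux, and 5.27 and 4.91 at 5000 lux. The 3 knockout arrays at 2500 lux were the lowest of all 16, and the other groups lay close together. Knockout exceeded wild type at 50 lux by 0.37 (SE 0.15), 1.29-fold, and was lower by -0.94 (SE 0.13) at 2500 lux, 1.92-fold, while at 5000 lux the difference was 0.09 (SE 0.15). Wild type at 2500 lux differed from 50 lux by 0.38 (SE 0.15), and knockout by -0.93 (SE 0.13), 1.90-fold lower. Its second probe set stayed between 2.60 and 3.85 on every array and was not tested.

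**Figure D3:**
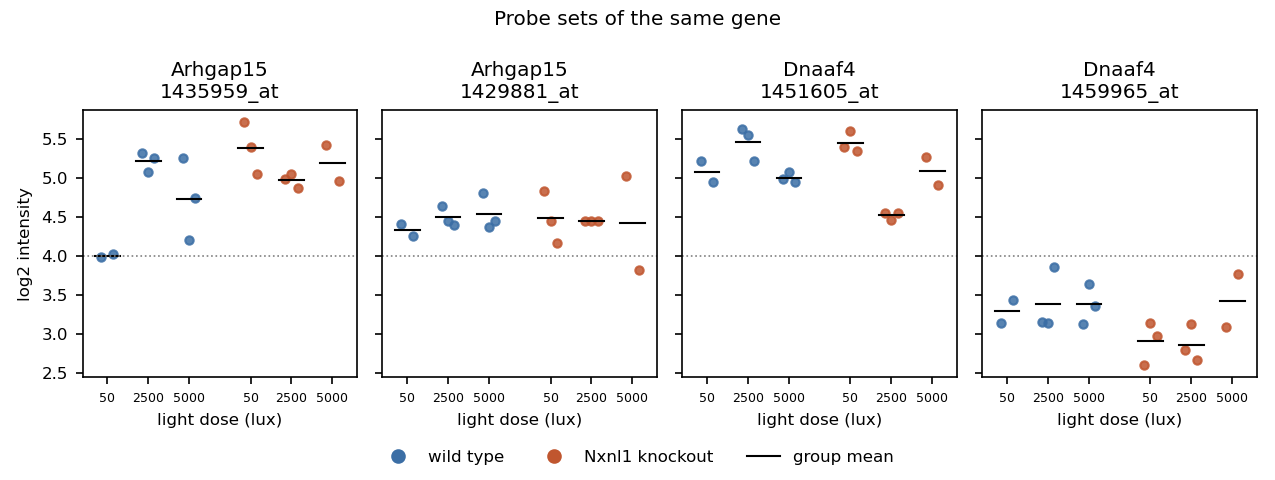
Log2 intensity of 2 probe sets each of Arhgap15 and Dnaaf4 on the 16 arrays, by light dose in lux, with group means as lines and log2 4 dotted. The low wild-type points of Arhgap15 at 50 lux appear in its first panel and not in its second, and the second probe set of Dnaaf4 lies below log2 4 throughout.

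The step from 2500 to 5000 lux within a genotype was not named in the choice of the genes and was tested. The choice did use light changes that include the arrays at these doses, so the tests are not independent of it. Zfp469 lay below log2 4 at both doses, which leaves 5 genes with a measurable step. In wild type 0 of the 5 passed an adjusted p of 0.05 in limma, against 0% of all probe sets called higher and 0% called lower. In knockout 0 of the 5 passed, against 0.00429% called higher and 0.0729% called lower. At an unadjusted p below 0.05, 1 of the 5 genes, Dnaaf4, passed in each genotype, beside 8.22% of all probe sets in wild type and 12.7% in knockout. Dnaaf4 differed by -0.47 (95% interval -0.76 to -0.18) in wild type, adjusted p = 0.57, and by 0.57 (95% interval 0.24 to 0.89) in knockout, adjusted p = 0.17. The difference between these steps was not tested.

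For Sox30 and Antxr2 the intervals of the step were narrow beside their light changes. Sox30 differed by 0.25 (95% interval -0.01 to 0.52) in wild type, adjusted p = 0.61, and by -0.06 (95% interval -0.35 to 0.24) in knockout, adjusted p = 0.89. Antxr2 differed by -0.06 (95% interval -0.38 to 0.26) in wild type, adjusted p = 0.92, and by -0.10 (95% interval -0.46 to 0.26) in knockout, adjusted p = 0.84. For Antxr2 in wild type the sign of the step turned when either of 2 arrays was left out, to 0.06 without replicate 3 at 2500 lux and to 0.04 without replicate 1 at 5000 lux. Rnase4 differed by -0.40 (95% interval -0.84 to 0.04) in wild type, adjusted p = 0.62, and by 0.39 (95% interval -0.10 to 0.88) in knockout, adjusted p = 0.50. Arhgap15 differed by -0.48 (95% interval -0.98 to 0.01) in wild type, adjusted p = 0.60, and by 0.22 (95% interval -0.34 to 0.77) in knockout, adjusted p = 0.76, which became -0.02 without replicate 1 at 5000 lux. No step passed at these group sizes, which does not show the doses to act alike.

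**Figure D4:**
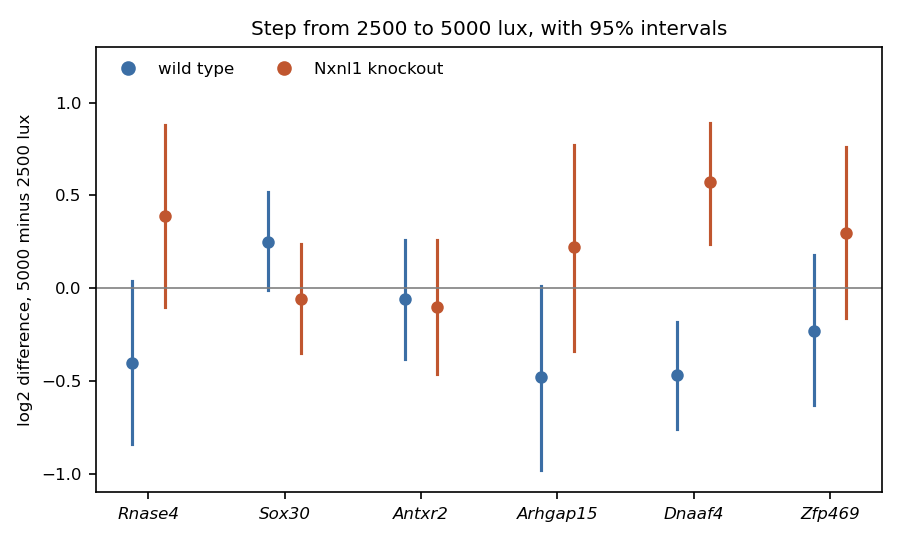
Log2 difference of 5000 minus 2500 lux for each gene in wild type (blue) and knockout (orange), with 95% intervals from the fit over 16 arrays. Except for Dnaaf4, at -0.47 in wild type and 0.57 in knockout, each interval includes 0. Zfp469 lay below the measured level at both doses.

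The relatives and partners of the 6 genes were read from lists chosen for function: 114 genes, of which 100 had a probe set with 1 symbol and 52 could be tested. None of the 52 passed in knockout against wild type at 50 lux in limma, where the smallest adjusted p was 0.15, 10 had an unadjusted p below 0.05, beside 14.6% of all probe sets, and the median difference was 0.11 against 0.04 for all probe sets. From 50 to 2500 lux in wild type 4 rose and 2 fell, where 6.72% of all probe sets were called higher and 5.04% lower. From 50 to 5000 lux in wild type 4 rose and 2 fell, against 5.97% and 4.52%. In knockout 6 rose and 5 fell at 2500 lux, against 8.6% and 10.7%, and 1 rose and 3 fell at 5000 lux, against 5.54% and 5.88%. In the step from 2500 to 5000 lux 0 passed in either genotype, with 8 in wild type and 14 in knockout at an unadjusted p below 0.05, beside 8.22% and 12.7% of all probe sets.

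Of the ribonuclease A family, 9 of 12 listed genes had a probe set and only Rnh1, the intracellular inhibitor of these enzymes, could be tested. Rnh1 rose by 0.56 (SE 0.14) in knockout at 2500 lux, adjusted p = 0.014, and differed by 0.13 (SE 0.16) between genotypes at 50 lux. Ang, which shares a start window with Rnase4, lay between log2 2.21 and 2.22 on all arrays in its 3 probe sets. Rnase4 was thus measured on all 16 arrays, while Ang, Rnase1 and Rnase6 did not pass the filter.

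Of the SOX factors, 8 of 18 could be tested, and 3 rose in wild type at 2500 lux with none falling. Sox2, a factor of progenitor cells and Müller glia, rose by 0.66 (SE 0.16) in wild type at 2500 lux, adjusted p = 0.018, and by 0.85 (SE 0.14) in knockout, adjusted p = 0.001. Sox6 rose by 0.78 (SE 0.18), adjusted p = 0.011, and by 0.77 (SE 0.16), adjusted p = 0.0037. Sox11 was at least 1.24-fold higher in wild type, adjusted p = 0.018, and at least 1.42-fold higher in knockout, adjusted p = 0.026. In knockout at 2500 lux 4 rose, Sox4 being the fourth at 0.58 (SE 0.15), adjusted p = 0.017. The tested SOX genes had a median light change at 2500 lux of 0.46 in wild type and 0.57 in knockout, below the changes of 3.19 and 1.80 of Sox30, and at 50 lux a median genotype difference of 0.22, with 0 of 8 passing.

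Of the partners of Antxr2, 10 of 15 could be tested. Mmp14, a membrane-bound protease of the matrix that works with the receptor, rose by 1.44 (SE 0.32) in wild type at 2500 lux, adjusted p = 0.0096, and by 1.75 (SE 0.28) in knockout, adjusted p = 0.00074. Lama1, a laminin chain, was at least 1.06-fold lower in knockout at 2500 lux, adjusted p = 0.038. The close relative Antxr1 differed by 0.37 (SE 0.16) at 50 lux, adjusted p = 0.31.

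Of the collagen and corneal matrix genes read beside Zfp469, 7 of 16 could be tested, and Fkbp14, a collagen-folding enzyme, rose by 0.47 (SE 0.10) in wild type at 5000 lux, adjusted p = 0.0095. No other gene of that list passed in any of the 7 comparisons. Of the dynein assembly and cilium genes, 10 of 25 could be tested. Dnaic2, an intermediate chain of the outer dynein arm, was at least 1.57-fold lower in wild type at 2500 lux, adjusted p = 0.0054, and at least 1.26-fold lower in knockout, adjusted p = 0.0034. Pih1d1, a cofactor of protein complex assembly, rose by 0.79 (SE 0.22) in wild type at 5000 lux, adjusted p = 0.035.

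Of the RAC GTPases and their regulators, 17 of 29 could be tested, and none rose in any of the 7 comparisons. Arhgap24, another GTPase-activating protein of RAC, fell by 0.40 (SE 0.12) in wild type at 2500 lux, adjusted p = 0.042, and by 0.72 (SE 0.10) in knockout, adjusted p = 0.00032. Arhgap35 fell by 0.59 (SE 0.13) in knockout at 2500 lux, adjusted p = 0.0072, and Pak2, a kinase that RAC activates, by 0.47 (SE 0.13), adjusted p = 0.018. Tiam1, which loads RAC with GTP, fell by 0.71 (SE 0.19) in knockout at 5000 lux, adjusted p = 0.031. Rac1 differed by 0.10 (SE 0.11) between genotypes at 50 lux, adjusted p = 0.68, and Rac2, the form of blood cells, lay between 2.21 and 2.24 throughout.

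At 50 lux the summed level was higher on every knockout array than on every wild-type array for 7 of 11 marker lists: microglia, lymphocytes and granulocytes, endothelium, lens, cones, bipolar cells, and sclera, cornea and fibroblasts. Among single probe sets tested, 21.4% were apart in this way. The lymphocyte and granulocyte sum was 1 tested gene of 12 listed, Coro1a. The sclera, cornea and fibroblast sum held 3 of 10. These sums therefore do not show that those cell types were more abundant. The cone sum was 13100 and 13600 in wild type and 14700 to 15600 in knockout, and the bipolar sum 17400 on both wild-type arrays and 17800 to 19100 in knockout. Of 17 microglia and macrophage markers 11 could be tested, and none passed in knockout against wild type at 50 lux in limma, with a median difference of 0.64 against 0.04 for all probe sets. Their summed intensity was 672 and 693 in wild type and 996 to 1320 in knockout at 50 lux. In wild type it was 965 to 1140 at 2500 lux and 663 to 1190 at 5000 lux, and in knockout 808 to 1100 and 555 to 1090. Bright genes such as Ctss weigh most in this sum. The median change of the tested markers from 50 to 2500 lux was 0.64 in wild type and 0.27 in knockout. From 50 to 5000 lux it was 0.39 and -0.01. Aif1, P2ry12, Tmem119 and Trem2 of this list did not pass the filter, and Itgam lay at 2.21 on all arrays. Csf1r, C1qa and Cx3cr1 were measured. At 50 lux the mean of Csf1r was 6.74 in wild type and 7.39 in knockout, and that of C1qa 5.27 and 6.28. The mean of Cx3cr1 was 4.19 and 4.20.

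Within a group, the arrays stood in the same order by the microglia sum and by Rnase4 in 5 of the 6 groups, and by Arhgap15 in 4. For Dnaaf4 this held in 2 groups and for Sox30, Antxr2 and Zfp469 in 1 each. Groups held only 2 or 3 arrays, where orders match easily. The microglia sum was highest on replicate 1 in all 6 groups. A pattern shared by arrays of the same number would thus be counted again in each group. How often other probe sets share the order was not counted, so no link to microglia is read from these counts. Rnase4 measured 6.31, 6.10 and 5.66 in knockout at 50 lux where the sum was 1320, 1120 and 996, but in wild type at 2500 lux it measured 7.26, 7.61 and 7.49 where the sum was 1140, 965 and 999. Arhgap15 measured 5.71, 5.39 and 5.05 on the same knockout arrays at 50 lux, and its exceptions were wild type at 50 lux and knockout at 2500 lux. In wild type at 5000 lux it measured 5.26, 4.20 and 4.74 where the sum was 1190, 663 and 683. In knockout at 5000 lux it measured 5.42 and 4.96 where the sum was 1090 and 555. The part of microglia in the Rnase4 and Arhgap15 values was not tested.

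Endothelial and pericyte markers, 9 of 12 of them tested, summed to 1220 and 1320 in wild type and 1470 to 1970 in knockout at 50 lux, and none passed. Lens crystallins, 10 of 13 tested and none passing, summed to 69.7 and 182 in wild type at 50 lux and to 1930 to 8060 in knockout at 50 lux. Away from 50 lux, replicate 2 was high in 3 groups, at 83300 in wild type at 5000 lux, 7020 in knockout at 2500 lux and 5050 in knockout at 5000 lux, and every other bright light array lay between 61.7 and 210. On the array with 83300, Sox30 measured 9.65, Antxr2 9.82 and Dnaaf4 5.07, each the highest of that group. The next arrays measured 9.64, 9.74 and 4.98. On the array with 83300, Rnase4 measured 6.89 and Arhgap15 4.20, each the lowest of the group, where the next arrays measured 7.03 and 4.74. No link to lens content is read from these ranks. Without that array the step from 2500 to 5000 lux in wild type was 0.21 for Sox30, -0.13 for Antxr2, -0.32 for Rnase4, -0.50 for Dnaaf4 and -0.22 for Arhgap15. All 3 knockout arrays at 50 lux had raised crystallins, while the wild-type arrays at 50 lux lay within the range of the low bright light arrays. At 50 lux raised crystallins and genotype therefore cannot be told apart. Pigment epithelium markers summed to 10100 and 14100 in wild type and 6430 to 12600 in knockout at 50 lux. In wild type they summed to 5890 to 10400 at 2500 lux and 3380 to 5050 at 5000 lux. In knockout the sums were 3800 to 7790 and 4740 to 4830. Of 10 tested, 2 fell in wild type at 2500 lux and 7 at 5000 lux. In knockout 2 rose and 2 fell at 2500 lux, and none passed at 5000 lux. Rod markers, 11 of 13 tested, fell with light, 7 of 11 in wild type at 2500 lux and 8 at 5000 lux, and 11 and 5 in knockout, while 0 of 11 passed between genotypes at 50 lux. The part of these other cells in the genotype differences and light changes was not tested.

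**Figure D5:**
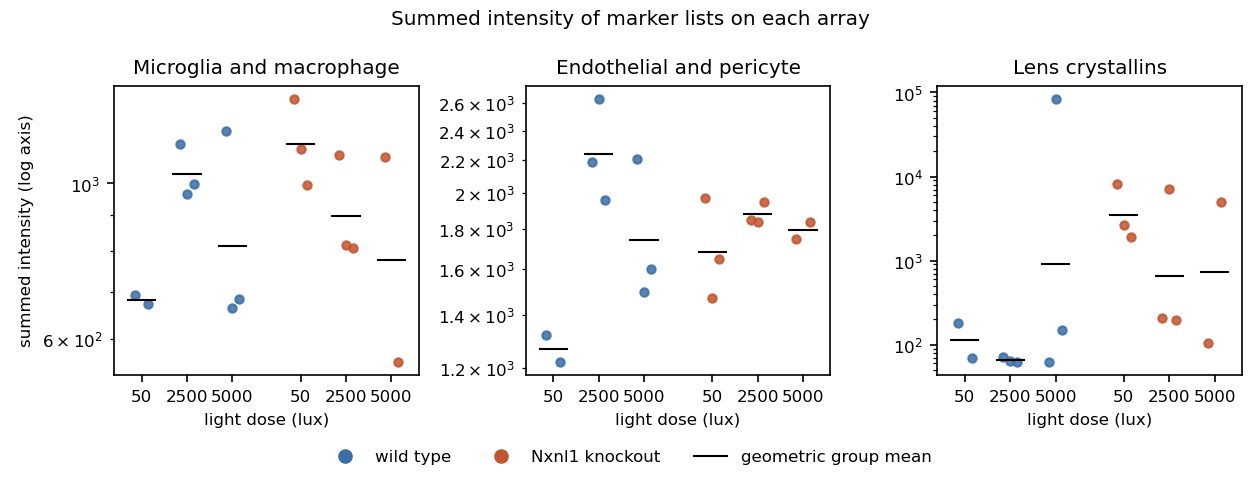
Summed intensity (log axis) of the tested markers of microglia and macrophages (left), endothelium and pericytes (middle) and lens (right) on each array, by light dose in lux, with lines at the geometric group mean. At 50 lux the knockout arrays lie above the wild-type arrays in all 3 panels, and 1 wild-type array at 5000 lux reached 83300 in lens crystallins.

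The genes whose profiles lay nearest to each of the 6 were found by the root mean square difference of log2 values over the 16 arrays, each profile centred on its mean, among 10915 genes. Nearest to Sox30 were Lrrc2 at 0.20, Btc at 0.27 and Skap2 at 0.29, where the profile of Sox30 varied by 1.19 about its own mean. Lrrc2 had group means in wild type of 7.59, 10.90 and 11.04 at 50, 2500 and 5000 lux, and in knockout of 8.79, 10.96 and 10.81. Nearest to Antxr2, which varied by 0.95, were Sec22c at 0.26, Btc at 0.27 and Pbxip1 at 0.28. Btc, the gene of the growth factor betacellulin, was thus among the 3 nearest to both, with wild-type means of 5.22, 7.92 and 8.11 and knockout means of 6.48, 7.97 and 8.01. Sox30 and Antxr2 themselves differed by 0.34, the closest pair of the 6, and Sox30 and Zfp469 by 1.53, the farthest. Outside knockout at 50 lux Zfp469 lay below the measured level, so its distances and nearest genes rest largely on compressed values.

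The nearest genes to Rnase4 lay farther off than those of Sox30 and Antxr2. Rnase4 varied by 0.91, and its nearest genes were Rras at 0.44, Myo5b at 0.47 and Ubxn7 at 0.47. Rras, a small GTPase, had a knockout mean of 7.59 at 2500 lux against 7.72 in wild type, without the gap of Rnase4. Nearest to Zfp469, which varied by 0.62, were 6530402F18Rik at 0.29, Haus8 at 0.31 and Donson at 0.31. Donson, a factor of DNA replication, had its highest mean at 9.41 in knockout at 50 lux and lay between 8.02 and 8.64 in the other groups. Nearest to Dnaaf4, which varied by 0.36, were Abcd2 at 0.20, Tmem218 at 0.22 and Acbd7 at 0.22, and nearest to Arhgap15, which varied by 0.49, were Ncan at 0.28, Lrrc28 at 0.30 and Cmss1 at 0.30.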

How the data were processed

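RNA of mouse retina was measured on 16 arrays. The authors deposited linear intensity values, 1 for each probe set of each array. Per the submitters' processing notes they were made with GCRMA, which corrects background by probe sequence, normalizes arrays together and combines the probes of a set; version and settings: not given in the sources used here. Dim probe sets share a common low value, so their differences are compressed. Log2 was taken, and probe sets above log2 4 on at least 2 arrays were tested. A group with no array above log2 4 was set to that level for a fold, which is then written as "at least".

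The 6 group means were fitted with limma 3.58.1 (R 4.3.3) to all arrays at once, moderated by empirical Bayes (10 residual and 3.18 prior degrees of freedom) and Benjamini-Hochberg adjustment over 23320 probe sets; the fit was tested on simulated data. The number of arrays limits the precision. A gene was represented by its brightest 1-symbol probe set (mean of 16 arrays). Named genes were the 6 genes, Nxnl1, the 3 nearest profiles of each, up to 4 genes with the smallest p per list, and direct relatives (Ang, Antxr1, Rac1 and Rac2); 1 further item is not reported here. Symbols came from the platform annotation: 34945 probe sets had 1 symbol, 932 several and 9160 none. The 6 genes and all lists were chosen with earlier results of these data known. Filters, centring, array weights, replicate block, an offset, other probe set rules and leaving out arrays were tried as alternatives.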

Additional observations from a re-analysis of the deposited data

Results flagged for a closer look

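With values below log2 4 raised to that level, in 2 of the 6 genes every wild-type array at 2500 lux lay above the mean of wild type at 50 lux while every knockout array at 2500 lux lay below the mean of knockout at 50 lux. For Dnaaf4 the knockout light change minus the wild-type light change was -1.31 on the log2 scale. For Arhgap15 it was -1.62, on 1 of its 3 probe sets. These differences were not tested, because the genes were chosen by such differences on these arrays. At 5000 lux neither gene had all arrays of the genotypes on opposite sides.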

How the results depend on the processing

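Of 589 values of the 6 genes under other settings, 574 kept their sign, 11 took the opposite sign and 4 rounded to 0. In the step from 2500 to 5000 lux the sign turned for Antxr2 in wild type, between -0.14 and 0.06 with 1 array left out in turn, and for Arhgap15 in knockout, between -0.02 and 0.45. In the changes from 50 to 5000 lux, Dnaaf4 reached 0.05 in wild type and 0.08 in knockout, Arhgap15 0.04 in knockout and Zfp469, below the measured level, 0.12 in wild type. At 50 lux the excess of knockout ranged from 1.25 to 1.64 for Sox30, 1.19 to 1.65 for Antxr2, 1.08 to 1.94 for Rnase4, 0.75 to 1.76 for Zfp469, 0.51 to 1.55 for Arhgap15 and -0.01 to 0.50 for Dnaaf4, the lowest values of the last 2 coming from the mean over all probe sets of the gene.

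Counts of probe sets called depended more on the settings, and the cause was not tested. Knockout against wild type at 50 lux gave 76 calls, 141 with no filter, 248 with array weights, 1 from the arrays of the compared groups only, and 9 (without wild-type replicate 2) to 362 (without knockout replicate 2) with 1 array left out. The step in wild type gave 0 to 30 with 1 array left out, 30 without replicate 1 at 5000 lux. The step in knockout gave 18 calls, 10 with a filter at log2 6, 32 after median centring, 1 with array weights, 0 from the compared groups only, and 0 (without replicate 2 at 5000 lux) to 103 (without replicate 1). Wild type at 2500 lux gave 2744, 1329 from the compared groups only and 1112 (without replicate 1 at 50 lux) to 2768. Wild type at 5000 lux gave 2447, 5512 with array weights and 1001 (without the same array) to 2100. Knockout at 2500 lux gave 4501, 6791 with array weights and 2908 (without replicate 3 at 2500 lux) to 4434. Knockout at 5000 lux gave 2663, 1526 with no filter, 730 with array weights, 187 from the compared groups only, and 576 (without replicate 2 at 5000 lux) to 4413 (without replicate 1).

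With the replicate block, knockout at 5000 against 50 lux gave 4613 calls. Deviations of arrays with the same number correlated from -0.24 to 0.69 over 36 pairs, with 21 above 0.1, and 13 of 16 arrays correlated best with an array of their own number, a hint from the data and not from the design. Signal near log2 4 limits Zfp469, Arhgap15 and Dnaaf4.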
